A study of Mus musculus with 8 samples.

Results

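The endothelium is the cell layer that lines blood vessels, and 10 of its identity and signalling genes are described here: Pecam1, Cldn5, Cdh5, Emcn, Sox18, Sox17, Kdr, Flt1, Tek and Tie1. They were chosen by name, and a probe set was read where the platform annotation gave it one of these symbols and no other. All 10 were measured, by 15 of 45101 probe sets, out of 18193 genes with a probe set. On every array all 10 stood above the level below which genes were not tested, so that none entered through 1 group alone. The labels give the tissue as the rear portion of the palate, taken from BALB/c newborns at postnatal day 1. An osmotic minipump, a device that releases fluid at a steady rate, had been placed under the skin of the pregnant dams in all 4 groups. It held sterile physiological saline in the control group, and nicotine at 1.5, 3.0 or 4.5 mg/kg/day in the others. Each group had 2 Affymetrix arrays that the labels call biological replicates. The labels do not settle if an array stands for a single pup or a pool, and the small number of arrays limits precision.

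Vessels grow and stay in shape through 2 signalling systems of the endothelium, background that was not tested here. Vascular endothelial growth factor (VEGF) drives growth through the receptor Kdr, while Flt1 binds the same ligand more tightly and holds much of it back. Angiopoietins act through the receptor Tek, also called Tie2, and its partner Tie1 to steady mature vessels. The cells are joined by the cadherin Cdh5 and the claudin Cldn5, carry Pecam1 and the sialomucin Emcn on their surface, and are specified in part by the SOX factors Sox17 and Sox18.

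The makeup of the arrays has to be known before these genes are read. Of 8 lung genes with a probe set, 3 were above the level filter in each saline array, 1 in nicotine 1.5 replicate 1, and 6 to 8 in the other 5 arrays. Sftpc, the surfactant protein of lung alveoli, had a log2 level of 5.50 and 4.85 in saline, 4.65 and 12.18 at 1.5 mg/kg/day, 12.40 and 10.95 at 3.0, and 9.40 and 9.53 at 4.5. Stomach genes, 10 in all, had a median log2 level of 4.59 to 4.91 in nicotine, against 8.27 and 8.49 in saline. The intestine list, also of 10, had medians of 4.53 to 6.09 in nicotine, against 9.92 and 7.83 in saline. Its entry Sis was matched by synonym to Pdgfb, a growth factor gene, so 1 of the 10 is not an intestine gene. Over the mean of the doses 7 of the 9 tested fell (median -4.30), beside 5.40% of all genes. In each saline array 9 of the 10 were above the level filter, against 2 at 4.5 mg/kg/day. The list thus entered the test largely through saline, and these calls support nothing here. Of 11 genes of the palate and face, 6 to 9 were above the filter on an array, and Tbx22, a gene of the forming palate, stood at 4.17 to 4.46, under the filter of 4.94, on all 8. The 3' to 5' ratio of the actin control, a sign of RNA integrity, was 1.74 and 1.65 in saline, 1.39 and 1.20 at 1.5, 1.14 and 1.05 at 3.0, and 1.15 and 0.95 at 4.5 mg/kg/day. The Y-linked gene Eif2s3y reached an intensity of 236 on 1 nicotine array (3.0, replicate 1) and 301 on 1 saline array (replicate 1), while no other array exceeded 6.86. In bulk tissue, a difference in the number of endothelial cells and one in their RNA per cell cannot be told apart.

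Over the mean of the 3 nicotine doses, all 10 genes stood above saline on the log2 scale, and 3 rose: Cldn5, Pecam1 and Sox18. The rise was 2.38-fold for Cldn5, 2.12-fold for Pecam1 and 1.75-fold for Sox18. Tie1 stood 2.17-fold higher but varied more between arrays and did not pass. The smallest differences were those of Tek and Emcn, 1.17-fold and 1.22-fold. The median over the 10 genes was 0.65 log2 units, against 0.07 over all 13586 genes tested. Nicotine against saline called 4.75% of all genes higher, and 10.2% either way, so the 3 of 10 are read beside those shares. Of the calls either way 46.8% were higher, and 27.2% with the values as deposited. An unadjusted p under 0.05 was met by 5 of the 10 and by 30.8% of all genes, and a fold above 0 by 55.9% of all genes. The test was limma's on log2(intensity + 16) after quantile normalization, with Benjamini-Hochberg adjusted p under 0.05 over all genes as the threshold. The added 16 makes the folds of dim genes smaller than they are on the intensity scale.

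**Figure D1:**
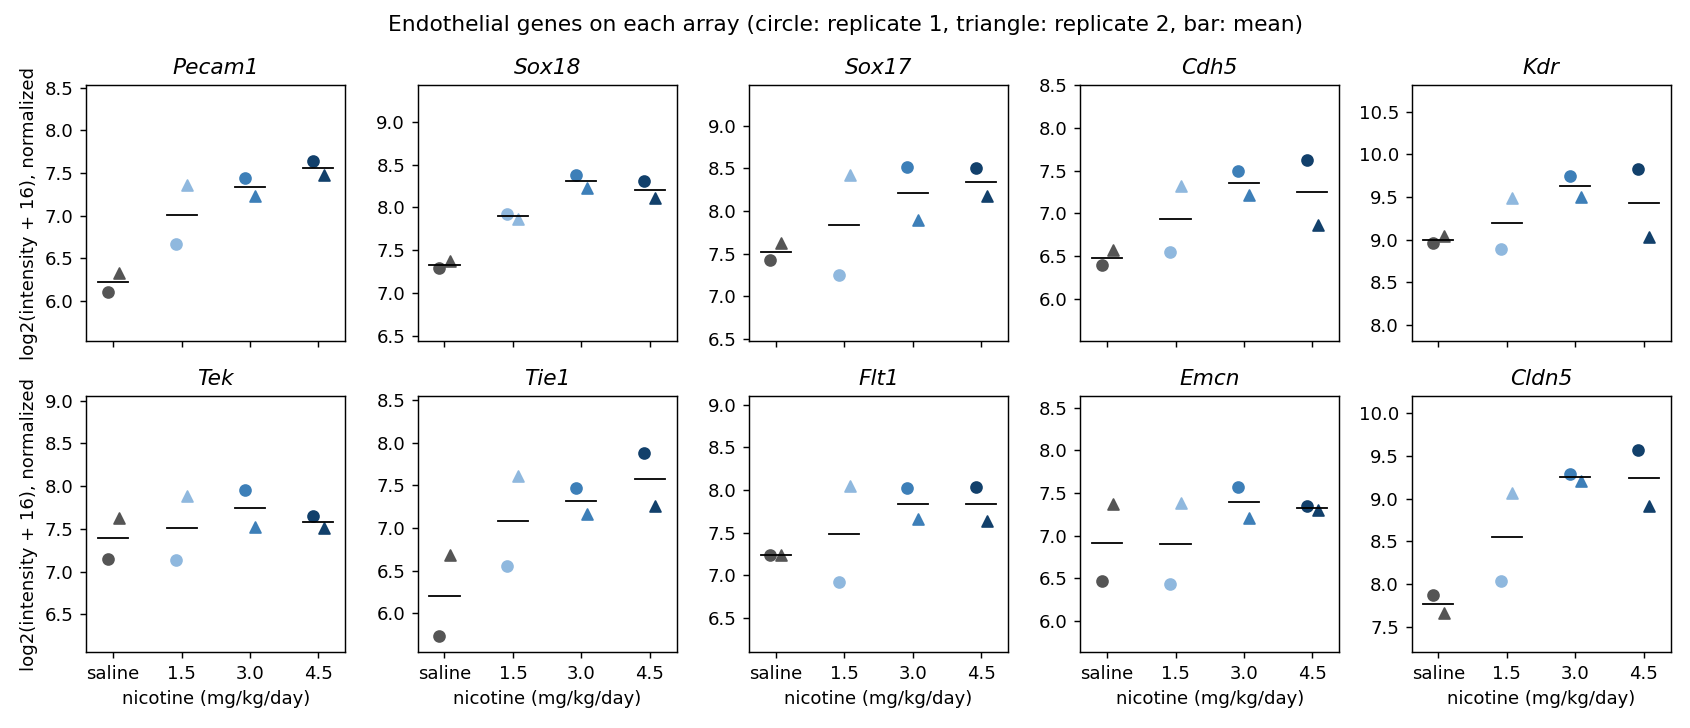
Normalized log2 level of each of the 10 endothelial genes (vertical axis, same span in every panel) by dose of nicotine, with saline at the left. Circles are replicate 1, triangles replicate 2 and bars the mean of the 2 arrays; nicotine 1.5 replicate 1 lies near the saline arrays in most panels, and Pecam1, Sox18 and Cldn5 are the genes whose 6 nicotine arrays all lie above both saline arrays.

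The junction and surface genes are taken first. Cldn5, the claudin that seals tight junctions between endothelial cells (chr16:18776847-18778262, build GRCm38.p6 here and below), had intensities of 234 and 195 in saline, 229 and 518 at 1.5 mg/kg/day, 639 and 597 at 3.0, and 771 and 441 at 4.5. Its 5 high arrays were all of nicotine groups, and nicotine 1.5 replicate 1 lay between the saline arrays as deposited, though after normalization its log2 level of 8.04 was above their 7.87 and 7.66. Over the mean of the doses Cldn5 rose by 1.25 ± 0.30 log2 units (SE, limma adjusted p = 0.0475), and by dose it stood at 0.79 ± 0.37, 1.48 ± 0.37 and 1.48 ± 0.37 for 1.5, 3.0 and 4.5, where no dose passed (adjusted p from 0.0600 to 0.282). Pecam1, the adhesion molecule CD31 of endothelium, platelets and some white blood cells (chr11:106654213-106715281), had intensities of 60.6 and 67.7 in saline, 81.5 and 154 at 1.5, 158 and 131 at 3.0, and 178 and 152 at 4.5. Every nicotine array was above both saline arrays. Pecam1 rose by 1.08 ± 0.21 across the 3 doses on average (adjusted p = 0.0273) and by 1.34 ± 0.26 at 4.5 mg/kg/day (adjusted p = 0.0324), and stood at 0.79 ± 0.26 at 1.5 and 1.11 ± 0.26 at 3.0 (adjusted p = 0.150 and 0.0674).

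Cdh5, the VE-cadherin of adherens junctions (chr8:104101613-104144504), had intensities of 76.7 and 83.0 in saline, 74.3 and 150 at 1.5 mg/kg/day, 165 and 130 at 3.0, and 176 and 94.1 at 4.5. Of its 6 nicotine arrays 5 were above both saline arrays, and nicotine 1.5 replicate 1 lay below both as deposited and between them after normalization. Its difference over the mean of the doses was 0.70 ± 0.28 (adjusted p = 0.146). Emcn, a sialomucin of capillary and venous endothelium (chr3:137341062-137431069), had intensities of 81.6 and 158 in saline, 66.9 and 157 at 1.5, 175 and 130 at 3.0, and 141 and 132 at 4.5. The saline arrays, at log2 levels of 6.47 and 7.37, were far apart and overlapped the nicotine arrays. Emcn differed by 0.29 ± 0.32 (adjusted p = 0.577), with a 95% confidence interval from -0.48 to 1.06 that holds both no change and a rise of the size seen for Sox18. A second Cdh5 probe set was below the level filter and was not tested.

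The SOX factors share a DNA-binding domain and act together in vessel formation. Sox18, which is needed for the lymphatic lineage as well (chr2:181669837-181671640), had intensities of 153 and 157 in saline, 210 and 226 at 1.5 mg/kg/day, 327 and 286 at 3.0, and 297 and 244 at 4.5. All 6 nicotine arrays lay above saline, whose log2 levels, 7.29 and 7.37, were close together. Sox18 rose by 0.81 ± 0.14 across the 3 doses on average (adjusted p = 0.0187), by 0.98 ± 0.17 at 3.0 (adjusted p = 0.0323) and by 0.88 ± 0.17 at 4.5 (adjusted p = 0.0317). At 1.5 it stood at 0.57 ± 0.17 (adjusted p = 0.121). Sox17, a factor of arterial endothelium (chr1:4490928-4497426), had intensities of 170 and 190 in saline, 128 and 331 at 1.5, 365 and 221 at 3.0, and 344 and 255 at 4.5, on its brighter probe set. The lowest of the 8 was nicotine 1.5 replicate 1, and the other 5 nicotine arrays were above saline. Sox17 differed by 0.60 ± 0.33 over the mean of the doses (adjusted p = 0.260). On its second probe set the difference was 0.85 ± 0.25 (adjusted p = 0.0728 in a fit with each probe set as its own row).

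The receptors follow, with the 250 bases upstream of the start of Tie1, the receptor with the largest difference, and of Cldn5, the gene with the largest of all. The promoter table, from RefSeq on build GRCm38.p6, held 6 of the 10 genes. ETS factors, which bind DNA at the core GGAA, are known regulators of endothelial genes, and these 2 windows lie at the extremes of the 6 in matches to it. Each is written 5′ to 3′ on the strand of its gene, with GGAA on either strand in capitals (TTCC marks it on the other strand). The windows are chr4:118489850-118490099 for Tie1 (minus strand) and chr16:18776597-18776846 for Cldn5 (plus strand).
Tie1: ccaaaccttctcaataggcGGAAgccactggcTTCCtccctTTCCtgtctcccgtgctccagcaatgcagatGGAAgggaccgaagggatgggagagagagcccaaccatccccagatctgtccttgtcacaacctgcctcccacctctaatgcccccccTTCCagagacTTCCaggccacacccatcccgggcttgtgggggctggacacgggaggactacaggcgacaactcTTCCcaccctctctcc
Cldn5: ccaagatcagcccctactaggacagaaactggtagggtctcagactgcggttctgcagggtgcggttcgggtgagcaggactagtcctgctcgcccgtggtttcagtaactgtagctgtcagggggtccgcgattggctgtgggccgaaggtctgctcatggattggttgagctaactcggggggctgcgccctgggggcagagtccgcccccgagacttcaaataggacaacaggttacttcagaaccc

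Of 32851 such windows 93.4% held GGAA on either strand, with a median of 3 matches. Tie1 held 7, a number reached by 3.82% of windows, and Kdr, Flt1 and Emcn held 4 each, reached by 33.4%. Tek held 2 and Cldn5 held none. Only the windows of Tie1 and Cldn5 border the gene spans printed here. Those of Kdr (chr5:75978456-75978705) and Flt1 (chr5:147726012-147726261) lie inside these spans, and those of Tek and Emcn overlap them in part. The SOX core ACAAT, on either strand, was found in 27.7% of windows. Among the 6 genes it occurred 2 times in Tek and 1 time in Emcn. A match is a description of letters in the window, and was not tested as a binding site.

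Kdr, the main signalling receptor for VEGF (chr5:75932827-75979072), had intensities of 495 and 541 in saline, 412 and 689 at 1.5 mg/kg/day, 902 and 738 at 3.0, and 929 and 484 at 4.5. At 1.5 mg/kg/day 1 array was above both saline arrays and the other below both, and at 4.5 the lower array lay between the saline arrays after normalization. The difference over the mean of the doses was 0.42 ± 0.26 (adjusted p = 0.315). Flt1, the VEGF receptor that also acts as a decoy (chr5:147561604-147726438), had intensities of 147 and 142 in saline, 99.4 and 255 at 1.5, 248 and 185 at 3.0, and 240 and 172 at 4.5. The saline arrays agreed closely, nicotine 1.5 replicate 1 was the lowest and the other 5 nicotine arrays were above saline. Flt1 differed by 0.48 ± 0.30 (adjusted p = 0.319), and its other 3 probe sets by 0.34 ± 0.13, 0.36 ± 0.23 and 0.39 ± 0.17 (adjusted p = 0.133, 0.322 and 0.168 with each probe set as its own row).

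Tie1, the partner receptor of Tek (chr4:118471191-118489849), had intensities of 42.7 and 91.1 in saline, 74.8 and 185 at 1.5 mg/kg/day, 163 and 126 at 3.0, and 214 and 128 at 4.5. It had the widest range of the 10 genes over the 8 arrays, 2.14 log2 units, and its saline arrays stood apart at 5.74 and 6.68. The difference over the mean of the doses was 1.12 ± 0.37 (adjusted p = 0.0974), and at 4.5 it was 1.36 ± 0.45 (adjusted p = 0.108). Tek, the receptor for angiopoietins (chr4:94739086-94874976), had intensities of 137 and 191 in saline, 117 and 229 at 1.5, 238 and 165 at 3.0, and 179 and 156 at 4.5. The groups overlapped at every dose, and the range of Tek over the arrays, 0.83, was the narrowest of the 10. It differed by 0.22 ± 0.26 (adjusted p = 0.586), with a 95% confidence interval from -0.38 to 0.83.

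**Figure D2:**
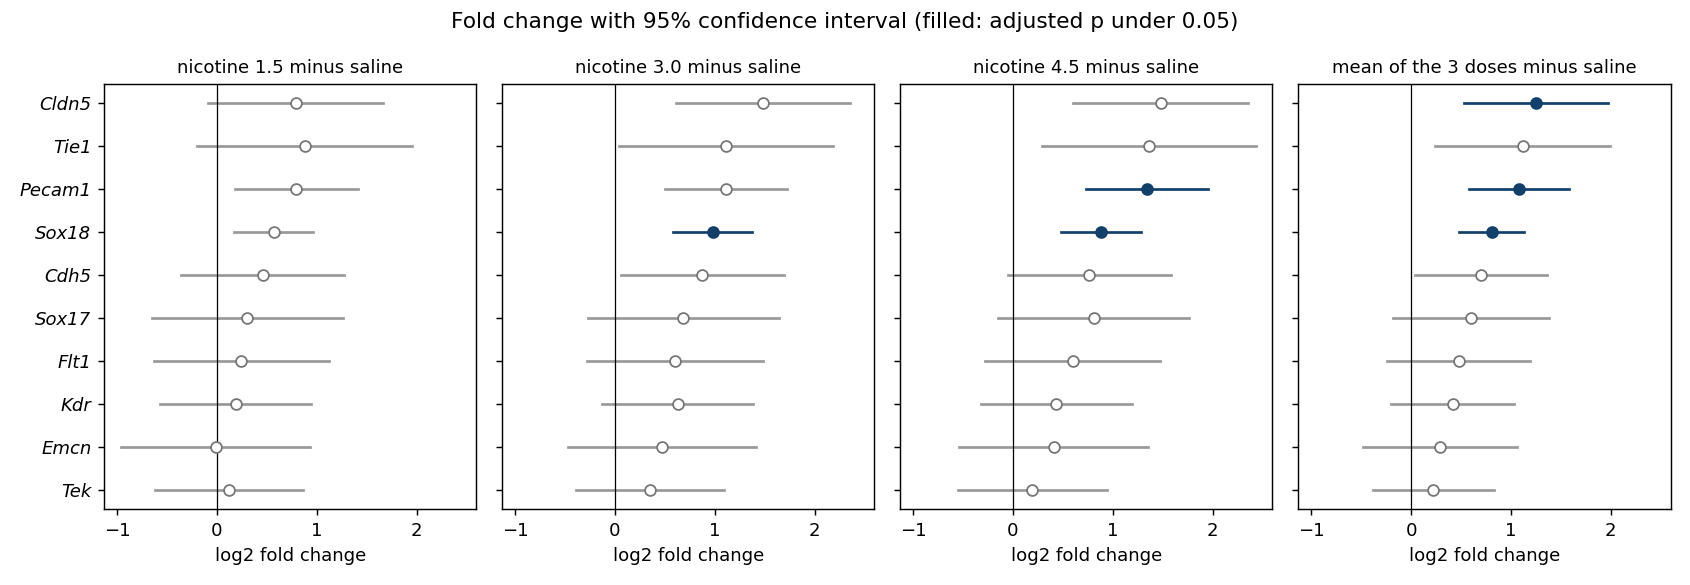
Log2 fold change (horizontal axis) of each gene at each dose against saline and for the mean of the doses, with 95% confidence intervals. Filled points passed an adjusted p of 0.05: Sox18 at 3.0, Sox18 and Pecam1 at 4.5, and Cldn5, Pecam1 and Sox18 over the mean of the doses.

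By dose, the counts that passed were 0 of 10 at 1.5 mg/kg/day, 1 at 3.0 and 2 at 4.5, where 0.729%, 1.35% and 2.91% of all genes were called higher and 2.48%, 3.72% and 6.87% either way. An unadjusted p under 0.05 was met by 5 of 10 at 3.0 and 4 at 4.5, beside 25.0% and 29.2% of all genes. A fold above 0 was seen for 9 of 10 at 1.5 and for all 10 at 3.0 and at 4.5, beside 54.1%, 55.5% and 54.7%. At 1.5 the 10 genes ranged from -0.01 to 0.88, and 2 had an unadjusted p under 0.05, a limit that 21.1% of all genes met. At 3.0 and at 4.5 the median was 0.78 log2 units in both, with ranges of 0.35 to 1.48 and 0.19 to 1.48. These comparisons share the same 2 saline arrays. Both arrays of the dose lay above both saline arrays for 3 of 10 genes at 1.5, 8 at 3.0 and 7 at 4.5, beside 27.4%, 34.7% and 32.2% of all genes. All 6 nicotine arrays lay above both saline arrays for 3, Pecam1, Sox18 and Cldn5, beside 16.8% of all genes. Without nicotine 1.5 replicate 1 the other 5 did so for 7, beside 21.9%. All 6 lay below for 0 of 10 (12.6% of all genes), and both arrays of a dose lay below for 0 at 1.5, 3.0 and 4.5 (21.7%, 25.5% and 24.8%).

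A slope over the 4 doses asked for a steady change with dose. By limma 0 of 10 genes passed, with 6 at an unadjusted p under 0.05 and 0.802% of all genes called (0.287% upward), while 27.2% met the unadjusted limit and 54.4% had a slope above 0, as all 10 did. Slopes ran from 0.05 for Tek to 0.34 ± 0.08 log2 units per mg/kg/day for Cldn5, and Pecam1, at 0.29 ± 0.06, came nearest (adjusted p = 0.0524). Doses were also compared with each other. Nicotine 3.0 against 1.5 gave differences of 0.23 to 0.70, and nicotine 4.5 against 1.5 gave 0.07 to 0.69, all above 0, beside 49.7% and 49.9% of all genes. Nicotine 4.5 against 3.0 gave -0.20 to 0.25, with 3 of 10 above 0, beside 48.9%. By limma 0 of 10 genes passed in each of these, and Sox18 at 3.0 against 1.5 was the 1 gene with an unadjusted p under 0.05. Of all genes 0.00% were called in each of the 3 comparisons, and 10.8%, 7.09% and 3.94% had an unadjusted p under 0.05.

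The calls depended on single arrays. Without saline replicate 2, nicotine 3.0 replicate 1 or nicotine 3.0 replicate 2, 0 of 10 genes passed over the mean of the doses. Without saline replicate 1 or either array of nicotine 4.5, 1 gene, Sox18, passed. Tek and Emcn were below 0, at -0.02 and -0.16, without saline replicate 1. Over 20 alternatives Sox18 passed in 15, Pecam1 in 11 and Cldn5 in 4, with fold changes of 0.66 to 1.11, 0.67 to 1.26 and 0.98 to 1.43 log2 units. With the actin ratio as a covariate, chosen after seeing the data, 0 of 10 passed, and 1 gene of all those tested did (1380 without it). That ratio was higher in both saline arrays than in every nicotine array, so its part and that of nicotine cannot be told apart. At 3.0 and at 4.5 mg/kg/day 0 of 10 passed without any 1 of the saline, nicotine 3.0 or nicotine 4.5 arrays, and 3 (Pecam1, Sox18 and Cldn5) without either array of nicotine 1.5. With the values as deposited 0 passed at 4.5. The slope passed for Pecam1, Tie1 and Cldn5 without nicotine 1.5 replicate 2. Under array weights Sox18 alone passed over the mean of the doses, and leaving out the 2 arrays highest in liver genes gave Pecam1 and Tie1.

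Levels of the 10 genes moved together from array to array. Centred on each gene's mean over the 8 arrays, the median of the 10 genes was -0.63 and -0.36 in saline, -0.47 and 0.33 at 1.5 mg/kg/day, 0.44 and 0.16 at 3.0, and 0.52 and 0.17 at 4.5. The 2 arrays of nicotine 1.5 were thus on opposite sides of the mean. Replicate 1 of that dose was the lowest of all 8 arrays for Sox17, Kdr, Tek, Flt1 and Emcn. For Sox18 the 2 arrays of that dose were alike, at log2 levels of 7.92 and 7.87. Over the 45 pairs of genes Pearson's r across the 8 arrays, which share tissue and normalization, had a median of 0.84. That r includes the difference between saline and nicotine, and pairs of other genes were not measured beside it. Many other genes followed the same profile: Adgrl4, at r = 0.84 with the mean of the 10, ranked 546 among the other tested genes. The closest pair was Sox17 with Flt1 (r = 0.98, Spearman's rho = 0.86) and the loosest Sox18 with Tek (r = 0.46, rho = 0.48).

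**Figure D3:**
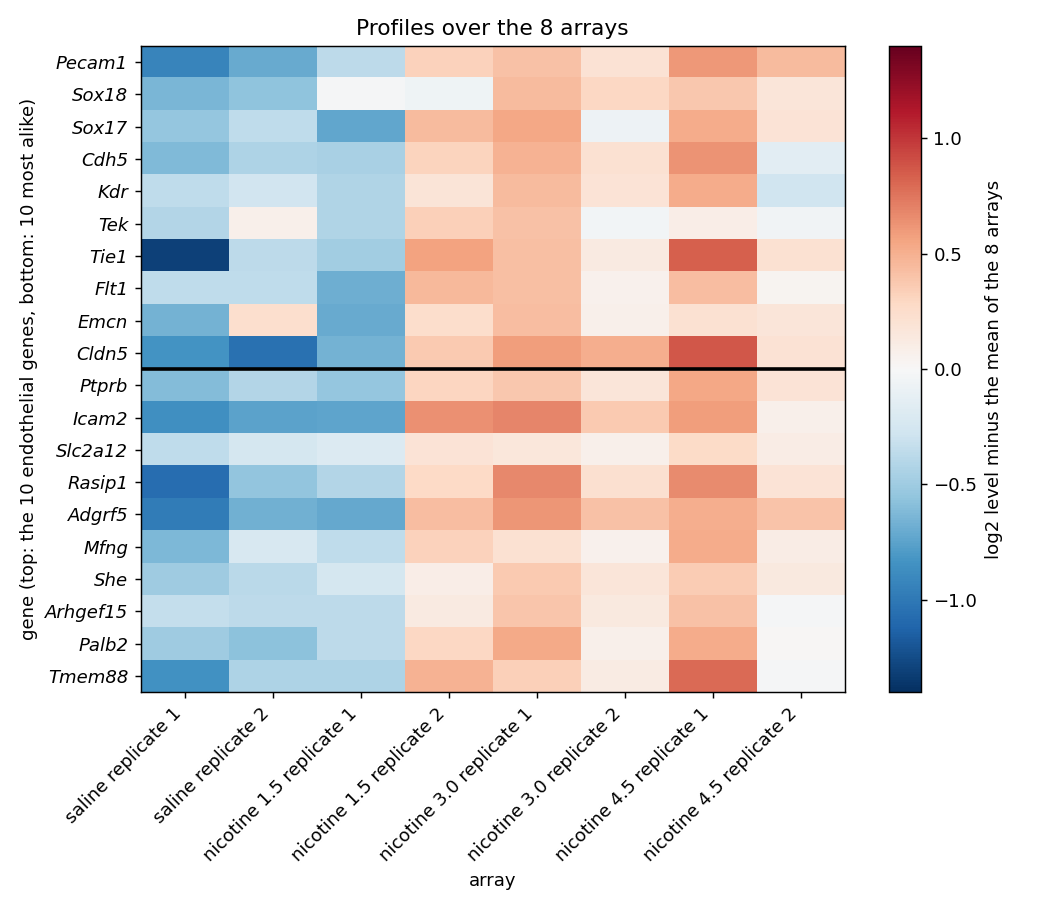
Log2 level minus the gene's mean over the 8 arrays (colour) for the 10 endothelial genes (top rows) and the 10 genes with the most similar profile (bottom rows), by array. Both saline arrays and nicotine 1.5 replicate 1 are mostly low (blue), and the other 5 nicotine arrays mostly high (red).

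The genes whose profile over the 8 arrays was most like the mean of these 10 included further endothelial genes. Likeness was measured as Pearson's r over the 8 arrays among all other tested genes. The closest was Ptprb, the phosphatase VE-PTP that acts on Tek and Cdh5, at r = 0.992 (rho = 0.976). Icam2, an endothelial adhesion molecule, stood at 0.979, Slc2a12, a glucose transporter, at 0.978, Rasip1, needed for vessel lumens, at 0.976, and Adgrf5, an adhesion receptor of lung and vessel cells, at 0.973. The other 5 were Mfng, a modifier of Notch, She, Arhgef15, a guanine nucleotide exchange factor of endothelium, Palb2, a DNA repair partner of BRCA2, and Tmem88, at 0.964 to 0.967. Of the 10, 4 stood in the vessel lists described next. None passed over the mean of the doses, the nearest being Rasip1 at 1.08 ± 0.27 (adjusted p = 0.0501) and Adgrf5 at 1.10 ± 0.29 (adjusted p = 0.0592).

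Other genes of the same pathways were read from 5 lists: vessel growth ligands, other receptors, endothelial transcription factors, junction and surface genes, and arterial and Notch genes. Of 69 genes tested in them 6 rose and 0 fell over the mean of the doses, with a median of 0.45, where 4.75% of all genes were called higher and 5.40% lower. At 1.5 mg/kg/day 2 rose (Cd34 and Gata2) and 0 fell, beside 0.729% and 1.75% of all genes. At 3.0 limma called 0 in either direction, beside 1.35% and 2.38% of all genes. An unadjusted p under 0.05 was met there by 32 of the 69, beside 25.0% of all genes. At 4.5 there were 4 that rose (Cd34, Gata2, Gja4 and S1pr1) and 1 that fell (Unc5b, a netrin receptor), beside 2.91% and 3.97% of all genes.

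Among the 10 ligands none passed, and all 10 were above 0 (median 0.43). Vegfb, a VEGF family member that binds Flt1, stood at 1.20 ± 0.32 (adjusted p = 0.0607), Pgf, the placental growth factor that also binds Flt1, at 0.48 ± 0.13 (adjusted p = 0.0592) and Angptl4 at 0.59 ± 0.22 (adjusted p = 0.128). Vegfa, the chief ligand of Kdr, was at 0.44 ± 0.27, and the Tek ligands Angpt1 and Angpt2 were at 0.38 ± 0.29 and 0.33 ± 0.19. Among 11 other receptors 2 rose (median 0.70): Ramp2, the partner of the adrenomedullin receptor, by 1.15 ± 0.26 (adjusted p = 0.0386) and Aplnr, the apelin receptor, by 0.62 ± 0.15 (adjusted p = 0.0497). S1pr1, a receptor of sphingosine 1-phosphate, had the largest difference of that list, 1.54 ± 0.38 (adjusted p = 0.0511). The lymphatic VEGF receptor Flt4 had the smallest, 0.11 ± 0.29.

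Among 17 transcription factors 2 rose, 10 were above 0 and 7 below (median 0.26). Gata2, a factor of endothelium and blood precursors, rose by 0.86 ± 0.14 (adjusted p = 0.0156) and Klf2, which responds to blood flow, by 0.75 ± 0.18 (adjusted p = 0.0486). Sox7, the third member of the Sox17 and Sox18 subgroup, stood at 0.80 ± 0.21 (adjusted p = 0.0586). Erg, Fli1 and Ets1, ETS factors of endothelium, were at 0.26 ± 0.17, 0.38 ± 0.16 and 0.16 ± 0.19. Of 22 junction and surface genes 1 rose and 19 were above 0 (median 0.63). That gene was Cd34, a sialomucin of endothelium and blood precursors, at 1.22 ± 0.19 (adjusted p = 0.0160). Plvap, the protein of capillary fenestrae, at -0.25 ± 0.28, Vcam1, at -0.93 ± 0.39, and Podxl, also of kidney podocytes, at -0.45 ± 0.28, were the 3 below 0.

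Arterial, venous and lymphatic genes did not share 1 direction. Of 9 arterial and Notch genes tested, Gja4, the connexin of arterial endothelium, rose by 0.97 ± 0.19 (adjusted p = 0.0281), and 5 were above 0 and 4 below (median 0.13). None of 3 venous genes passed, with Nr2f2, the regulator of vein identity, at -1.16 ± 0.34 (adjusted p = 0.0717), Ephb4 at 0.61 ± 0.20 and Ackr1 at 0.05 ± 0.18. Of 5 lymphatic genes 1 was called, Prox1, the master regulator of lymphatic endothelium that hepatocytes also express. Its log2 levels were 4.66 to 4.91 on the 6 nicotine arrays, all under the filter of 4.94, against 5.37 and 6.05 in saline. Prox1 was thus tested only because of its saline level, and its difference of -0.91 ± 0.21 (adjusted p = 0.0408), whose size the floor limits, supports nothing here. Lyve1, a hyaluronan receptor of lymphatic vessels and macrophages, was at 0.35 ± 0.35. Of the 6 genes that rose in the 5 vessel lists, Cd34 passed in 16 of 20 alternatives, Gata2 in 15, Gja4 in 9, Ramp2 in 8, Klf2 in 5 and Aplnr in 4. Prox1 passed in 3 of the 18 in which it was tested.

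**Figure D4:**
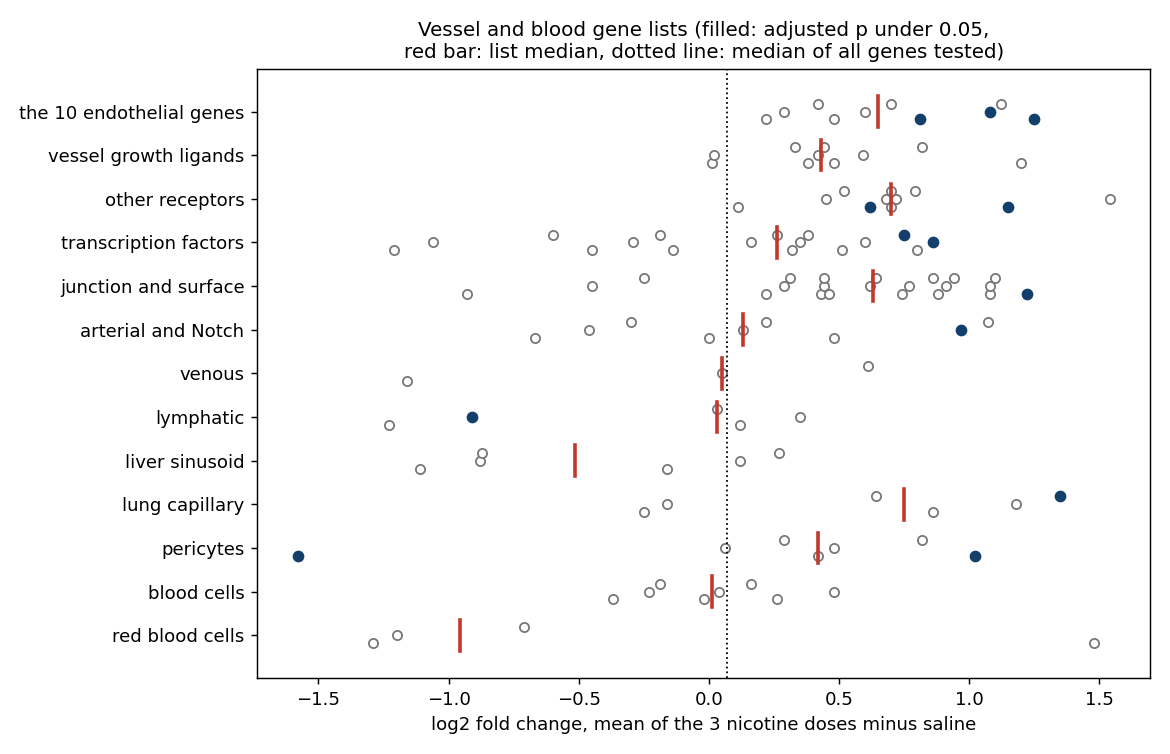
Log2 fold change over the mean of the 3 nicotine doses against saline (horizontal axis) for single genes (points) of each list (rows). Filled points passed an adjusted p of 0.05, red bars are list medians, and the dotted line is the median of all genes, 0.07; the 10 endothelial genes, the ligands and the other receptors lie wholly to the right of 0, while the liver sinusoid list has a median of -0.52.

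Genes of vessels in particular organs and of cells around vessels gave further readings. The 6 tested genes of liver sinusoid endothelium had a median of -0.52 with none passing, and Stab2, a scavenger receptor of sinusoids, had a log2 level of 5.31 and 7.17 in saline, 4.69 and 5.85 at 1.5 mg/kg/day, 4.98 and 4.86 at 3.0, and 4.73 and 5.64 at 4.5. The 9 liver genes had a median of 10.01 in nicotine 1.5 replicate 2 and of at most 4.84 on the other 5 nicotine arrays, against 9.73 and 11.52 in saline. Of 6 lung capillary genes 1 rose, beside 4.75% of all genes called higher. That gene was Fibin, at 1.35 ± 0.31 (adjusted p = 0.0421, and passing in 8 of 20 alternatives). Car4, the carbonic anhydrase of lung capillaries, had a log2 level of 5.89 and 7.79 in saline, 5.28 and 7.02 at 1.5, 8.51 and 8.58 at 3.0, and 8.87 and 7.94 at 4.5 (0.86 ± 0.62, adjusted p = 0.376).

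Of 7 genes of pericytes, the cells that wrap capillaries, 1 rose and 1 fell (median 0.42), beside 4.75% of all genes called higher and 5.40% lower. A fold above 0 was seen for 6, beside 55.9% of all genes, and an unadjusted p under 0.05 for 4, beside 30.8%. Notch3, a receptor of mural cells, rose by 1.02 ± 0.17 (adjusted p = 0.0194), and Anpep, an aminopeptidase of pericytes that is also abundant in intestinal lining, fell by 1.58 ± 0.21 on the log2 scale (adjusted p = 0.00869). Rgs5 and Pdgfrb, also of that list, were at 0.06 ± 0.14 and 0.42 ± 0.20. Platelets and white blood cells share Pecam1 and other endothelial genes, and of their 8 markers none passed (median 0.01). Pf4, the platelet factor, was at 0.04 ± 0.31 and Ptprc, the white cell antigen CD45, at -0.19 ± 0.37. The summed intensity of these 8 was 2083 to 2085 at 1.5 mg/kg/day, 2049 to 2563 at 3.0 and 1904 to 3132 at 4.5, against 2320 to 2446 in saline. None of the 4 tested red cell genes passed (median -0.96, from -1.29 to 1.48), with 1 above 0 and 3 below. The 5 red cell genes with a probe set had a median log2 level of 5.07 and 8.36 in saline, against 4.92 to 6.54 on the nicotine arrays.

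Genes of lung and brown fat, both rich in vessels, were high and low on nearly the same arrays as the 10 endothelial genes. The summed intensity of the 8 lung genes was 117 to 429 in saline, 93.9 to 10585 at 1.5 mg/kg/day, 3735 to 12698 at 3.0 and 1242 to 1452 at 4.5. Scgb1a1, of airway club cells, had log2 levels of 8.33 to 11.53 on 5 nicotine arrays, against 4.40 to 4.54 on the remaining one and in saline. The summed intensity of the 7 brown fat genes was 515 to 762 in saline, 989 to 3241 at 1.5, 11854 to 13902 at 3.0 and 3589 to 12352 at 4.5. Ucp1, the heat-producing protein of brown fat, had log2 levels of 6.65 to 12.27 on the same 5 arrays, against 4.24 to 4.43, below the level filter, on the other nicotine array and in saline. The 10 endothelial genes summed to 1598 to 1816 in saline, 1494 to 2894 at 1.5, 2711 to 3381 at 3.0 and 2258 to 3469 at 4.5. Skeletal muscle genes were higher on all 6 nicotine arrays, with medians of 10.47 to 10.97, against 9.99 and 9.35 in saline. Of the 10 genes 4 rose over the mean of the doses (median 0.81), where 4.75% of all genes were called higher. Of 7 brown fat genes tested 4 rose (median 2.61), beside the same 4.75%. In saline 5 to 6 of the 7 were above the level filter, against all 7 at 3.0 and 4.5 mg/kg/day. Ucp1, under the filter in saline, was tested only through the nicotine arrays where it was high. The brown fat count thus supports nothing here. Of 7 lung genes limma called 0 (median 2.97), with 2 at an unadjusted p under 0.05, beside 30.8% of all genes. Of the 8 with a probe set, 3 were above the level filter in each saline array, against 6 to 8 at 3.0 and 4.5 mg/kg/day. The lung list thus entered the test largely through nicotine arrays, and its count and median support nothing here. Heart genes had a median of 9.12 in nicotine 1.5 replicate 2, against 4.88 to 6.41 on the other arrays. Kidney genes had a median of 9.05 in saline replicate 2, against 4.38 to 5.49 on the others. The part of lung, brown fat, skeletal muscle, heart, kidney, liver, stomach and intestine in the endothelial difference was not tested. Stomach genes summed to 10686 to 11028 in saline and to at most 197 on a nicotine array. Intestine genes summed to 7455 to 14353 in saline and to at most 746 on a nicotine array. The part of stomach and intestine tissue and that of nicotine thus cannot be told apart.

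**Figure D5:**
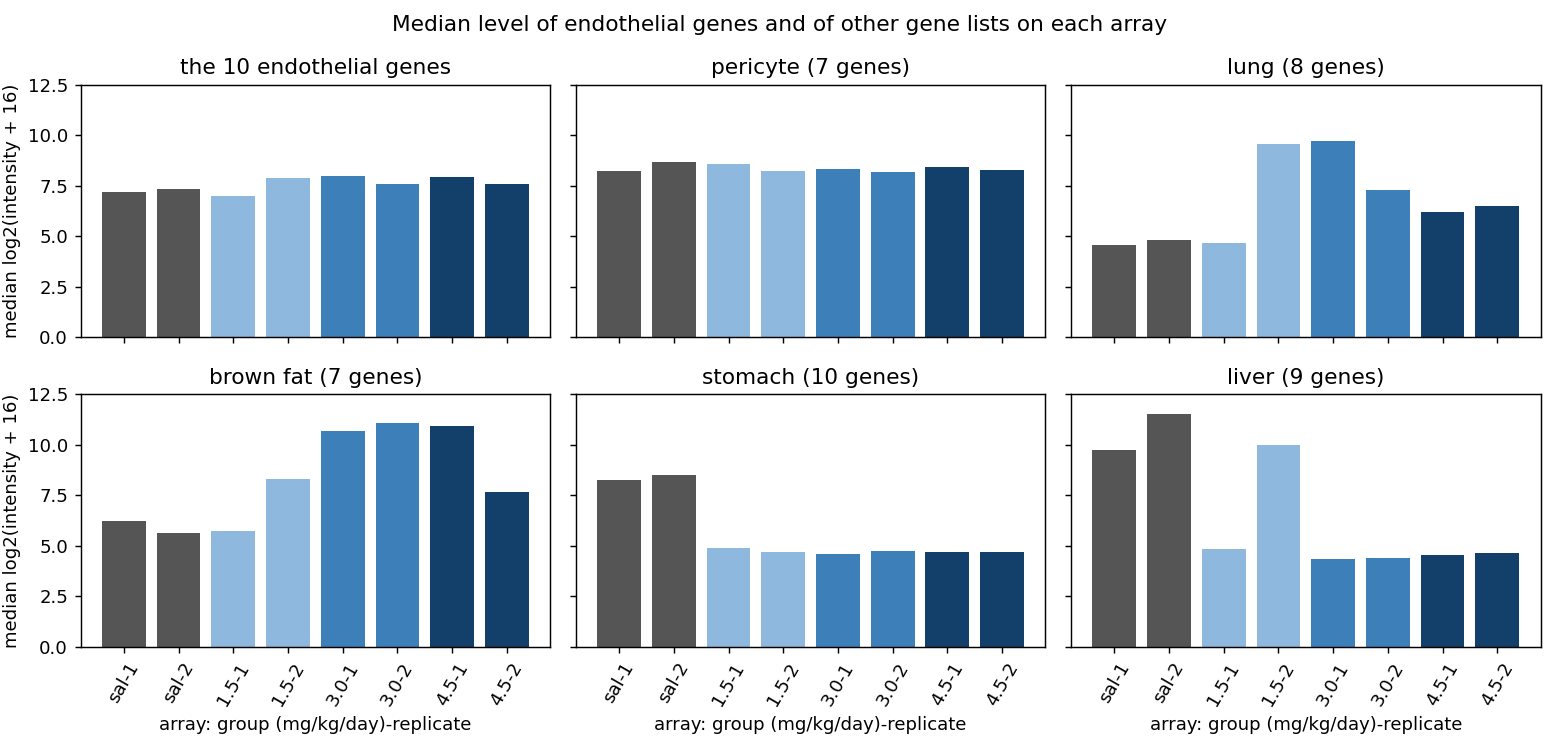
Median log2 level (vertical axis, from 0) of the 10 endothelial genes and of 5 other gene lists on each array, in order of dose. The endothelial medians run from 7.02 to 7.99 and the pericyte medians from 8.18 to 8.67, while lung, brown fat, stomach and liver medians differ by several log2 units between arrays.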

How the data were processed

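Per the file headers and values, the deposited table holds 1 linear intensity per probe set and array; no source used here states the authors' summarization, background correction or scaling. Symbols came from the platform annotation, of which 34945 probe sets named 1 gene, 932 several, 9160 none and 64 were controls; 34741 were updated by Entrez ID (GRCm38.p6). Intensities were taken as log2(intensity + 16). Array medians on this scale differed by 0.17, so the arrays were quantile-normalized. Each gene was read from its probe set with the highest mean, and 13586 genes at or above the 40th percentile of probe sets (4.94) were tested with limma 3.58.1 in R 4.3.3, as group means over all 8 arrays (4 residual and 6.85 total degrees of freedom) or as a slope over dose, two-sided. Errors are standard errors. Genes named for the alternatives are the 10 members and genes of each vessel, pericyte, lymphatic and blood list. From a list came every gene called over the mean of the doses, otherwise the 3 with the smallest p. Likeness adds the 10 tested genes with the highest r. Several blood, red cell and liver sinusoid genes named in this way are not described above. Other genes described were picked for their role after values were known. The members, lists and tests were chosen with earlier results of these data known. Same-numbered arrays did not deviate together (correlations of -0.22 to 0.33), so the number is not taken as a pairing. Simulated data had 10 runs over 13586 genes, of which 200 were raised in the nicotine arrays. There the mean-of-doses test recovered 0.400%, 35.2%, 82.6% and 88.6% of genes raised by 0.5, 1, 1.5 and 2 log2 units. Of its calls 6.09% were false. In the real data 1380 genes were called, which eases the adjusted threshold, so these shares do not carry over directly. No column was left unused.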

Additional observations from a re-analysis of the deposited data

How the results depend on the processing

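The 10 genes gave 1000 fold changes over 20 alternatives and 5 comparisons, of which 898 kept direction and side of the threshold, 63 lost the threshold, 14 gained it and 25 changed sign; for the other named genes, 558 of 685 kept both, 97 lost it, 20 gained it and 10 changed sign. Where a value moved, the cause was not tested. Of the 3 genes called over the mean of the doses, array weights left 1, the Y-linked covariate 1 and the actin covariate 0. At 3.0 mg/kg/day (1 gene) the replicate block left 0, the actin and Y-linked covariates 0 each, and leaving out the 2 arrays highest in liver genes gave 2. At 4.5 (2 genes) the values as deposited, the replicate block, array weights and both covariates gave 0 each. The slope gave 1 with the filter at the 60th percentile. Leaving out 1 array gave 0 to 3 genes over the mean of the doses, at 3.0, at 4.5 and for the slope, and 0 at 1.5. Same-numbered arrays did not deviate together, and with the replicate number as a block all-gene calls were 849 over the mean of the doses (1380 without it), 157 at 1.5 (337), 278 at 3.0 (506), 522 at 4.5 (934) and 0 for the slope (109), with 2 of the 10 genes called over the mean of the doses. Other all-gene counts over the mean of the doses were 618 with array weights, 1 with the actin covariate and 355 to 1490 without 1 array. At 1.5 they were 157 with an added constant of 1, 130 with weights, 560 without the 2 liver-high arrays, 4 with actin, 132 with the Y-linked covariate and 104 to 911 without 1 array. At 3.0 they were 896 without the liver-high arrays, 0 with actin and 52 to 994 without 1 array. At 4.5 they were 441 with weights, 0 with actin, 416 with the Y-linked covariate and 154 to 1367 without 1 array. For the slope they were 164 and 1 with added constants of 1 and 64, 203 as deposited, 2 with median centring, 1 with no filter, 242 at the 60th percentile, 1 with the mean over probe sets, 1 with weights, 0 without the liver-high arrays, 0 with either covariate and 0 to 792 without 1 array. Between doses, 3.0 against 1.5 gave 229 and 4.5 against 1.5 gave 201 without the liver-high arrays, and 0 to 47 and 0 to 39 without 1 array (0 in all cases for 4.5 against 3.0). Signs turned, over the mean of the doses, for Tek (-0.25 with actin, -0.02 without saline replicate 1), Emcn (-0.65, -0.16), Ackr1 (-0.08 as deposited, -0.01 median-centred, -0.61 with actin, -0.01 with the Y-linked covariate, -0.17 without saline replicate 1), Spi1 (-0.81 with actin), Csf1r (0.02 with the mean over probe sets), Gp9 (0.21 without the liver-high arrays) and Klf1 (0.08 without those, 0.35 without saline replicate 2). At 1.5 they turned without the liver-high arrays and without nicotine 1.5 replicate 2 for Sox17 (-0.19, -0.28), Kdr (-0.08, -0.11), Tek (-0.02, -0.26) and Flt1 (-0.33, -0.32), for Tek also with actin (-0.20) and without saline replicate 1 (-0.12), for Flt1 with actin (-0.03), and for Emcn without saline replicate 2 (0.44) or nicotine 1.5 replicate 1 (0.46). With actin they turned for Tek and Emcn at 3.0 (-0.16 and -0.56), at 4.5 (-0.38 and -0.73) and for the slope (-0.08 and -0.04), and at 4.5 without saline replicate 1 (-0.04 for each). Without 1 array, whichever it was, the values of these genes ran over the mean of the doses from -0.02 to 0.46 for Tek, -0.16 to 0.74 for Emcn, -0.17 to 0.27 for Ackr1 and -2.95 to 0.35 for Klf1, at 1.5 from -0.28 to 0.90 for Sox17, -0.11 to 0.50 for Kdr, -0.26 to 0.51 for Tek, -0.32 to 0.81 for Flt1 and -0.49 to 0.46 for Emcn, and at 4.5 from -0.04 to 0.43 for Tek and -0.04 to 0.86 for Emcn. The design has 2 arrays a group, and in simulated data with 200 genes raised the test rarely recovered a change of 0.5 log2 units. With 1380 genes called in the real data the adjusted threshold is easier to pass. How often a difference the size of those of Tek, Emcn, Kdr and Flt1 would be detected here was thus not measured.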
